A study of Arabidopsis thaliana with 6 samples.

Results

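Transcript levels of the expansin genes *EXPA4* (AT2G39700) and *EXPA8* (AT2G40610) and of the COBRA gene *COB* (AT5G60920) were compared between stems of *Arabidopsis thaliana* that overexpress *CLE41* and wild-type stems. The members were the probe sets that the platform's probe table ties to 1 of these genes alone. Each gene had 1 such probe set, so the members are 3 genes of 13355 that were measured in this sense. Genes described below as not measured lacked such a probe set. They may still be covered by the 8730 probe sets that the table does not list. The 35S::CLE41 plants carry *CLE41* under the viral 35S promoter, which drives expression in most tissues, and were made in the Columbia ecotype, which is also that of the wild type (WT). *CLE41* encodes the TDIF peptide, a phloem-derived signal to the dividing cells of the vascular cambium. Both genotypes were grown in 16 h of light and 8 h of dark for 5 weeks, and RNA was taken from the lower part of the inflorescence stem, leaving out the lowest 1 cm. There were 3 arrays of 35S::CLE41 and 3 of WT, 1 for each sample. The labels do not say how many transgenic lines were used, whether plants were pooled or whether the samples came from separate plants, so the p-values rest on sample-to-sample spread that could be technical.

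The walls of growing plant cells are a network of cellulose microfibrils held in a matrix of xyloglucan and pectin. Alpha-expansins (EXPA) and beta-expansins (EXPB) are small secreted proteins. They loosen this network at acid pH without cutting its polymers, and so let a wall yield to turgor. The large expansin family also holds expansin-like proteins (EXLA and EXLB), for which no such activity is assumed here. COB is a glycosylphosphatidylinositol-anchored protein of the cell surface that is needed to orient cellulose microfibrils across the axis of an elongating cell. Loss of its function gives swollen root cells in *Arabidopsis*.

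The overexpressed gene was higher in the transgenic arrays: *CLE41* (AT3G24770) averaged a log2 intensity of 11.46 ± 0.24 in 35S::CLE41 and 9.69 ± 0.28 in WT (SD, n = 3 each). Each array gave 22746 probe sets. Median intensities on the linear scale were 97.4 to 101 in 35S::CLE41 and 91.9 to 96.3 in WT, without overlap. Over all of them, 14.8% passed a limma adjusted p of 0.05 (3364 probe sets), 7.93% higher and 6.86% lower in 35S::CLE41. Shifting all arrays to 1 median turned this split around, from 1803 higher and 1561 lower to 1392 higher and 1975 lower. WT replicate 2 stood apart, with 365 probe sets at least 2-fold away from the mean of the other WT arrays, against 32 to 100 for each of the other arrays within its own genotype. Values without it are given for the members, and for the genes of the lists below where leaving it out changed the call.

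*EXPA4* rose in 35S::CLE41, and *EXPA8* and *COB* fell. All 3 members thus passed the threshold, beside the 14.8% of probe sets that did so overall. The members and the gene lists below were chosen with earlier results of these data known. Counts of called genes among them therefore cannot be tested against that share. A bulk stem sample cannot separate fewer cells that express a gene from less RNA per cell.

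*EXPA4* had log2 intensities of 11.47, 11.63 and 10.79 in 35S::CLE41 replicates 1, 2 and 3, against 9.97, 9.62 and 9.91 in WT. Every 35S::CLE41 array lay above every WT array, replicate 3 being the lowest of the 35S::CLE41 arrays. The means were 11.30 ± 0.45 in 35S::CLE41 and 9.83 ± 0.19 in WT (SD, n = 3 each). The log2 difference was 1.47 (SE 0.22, 95% interval 0.96 to 1.97, limma adjusted p = 0.00527). This is a 2.76-fold rise, with an interval of 1.95-fold to 3.91-fold. Ordered by signed difference from the top, *EXPA4* ranked 182 of the 22746 probe sets.

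The gap did not rest on a single array. Without 35S::CLE41 replicate 2, the highest array, the log2 difference of *EXPA4* was 1.30 (limma adjusted p = 0.024). Without 35S::CLE41 replicate 3 it was 1.72 (limma adjusted p = 0.0037), and without WT replicate 2 it was 1.36 (limma adjusted p = 0.00803).

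*EXPA8* moved the other way. Its log2 intensities were 7.15, 7.06 and 6.61 in 35S::CLE41 replicates 1, 2 and 3, against 7.78, 7.66 and 8.13 in WT. The genotypes did not overlap, and the outermost arrays were 35S::CLE41 replicate 3 at the low end and WT replicate 3 at the high end. The means were 6.94 ± 0.29 in 35S::CLE41 and 7.86 ± 0.25 in WT (SD, n = 3 each). *EXPA8* fell by 0.92 on the log2 scale (SE 0.18, 95% interval -1.33 to -0.51, limma adjusted p = 0.0143). The level in 35S::CLE41 was 1.89-fold lower, with an interval of 1.42-fold to 2.51-fold.

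Of the 3 members *EXPA8* had the highest adjusted p, and its size leaned on the outermost arrays. Without 35S::CLE41 replicate 3 the log2 difference was -0.75 (limma adjusted p = 0.0398), and without WT replicate 3 it was -0.78 (limma adjusted p = 0.0375). Without WT replicate 2 it was -1.02 (limma adjusted p = 0.0112). Among the fits without a single array, the highest adjusted p came without 35S::CLE41 replicate 2 (-0.98, limma adjusted p = 0.0444).

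*COB* was the most even of the members in WT. Its log2 intensities were 11.02, 10.66 and 10.91 in 35S::CLE41 replicates 1, 2 and 3, against 11.56, 11.62 and 11.61 in WT. The genotypes did not overlap, and the WT arrays lay within a narrow band while 35S::CLE41 replicate 2 was the lowest array. The means were 10.86 ± 0.18 in 35S::CLE41 and 11.60 ± 0.033 in WT (SD, n = 3 each). *COB* fell by 0.74 on the log2 scale (SE 0.11, 95% interval -1.001 to -0.47, limma adjusted p = 0.00644), or 1.66-fold. Without 35S::CLE41 replicate 2 the log2 difference was -0.63 (limma adjusted p = 0.0209), and without WT replicate 2 it was -0.72 (limma adjusted p = 0.0111). Among the fits without a single array, the highest adjusted p of *COB* came without 35S::CLE41 replicate 3 (-0.76, limma adjusted p = 0.0249). WT replicate 2 lay 0.035 above the mean of the other WT arrays for *COB*, against -0.32 for *EXPA4* and -0.29 for *EXPA8* on the same log2 scale.

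**Figure D1:**
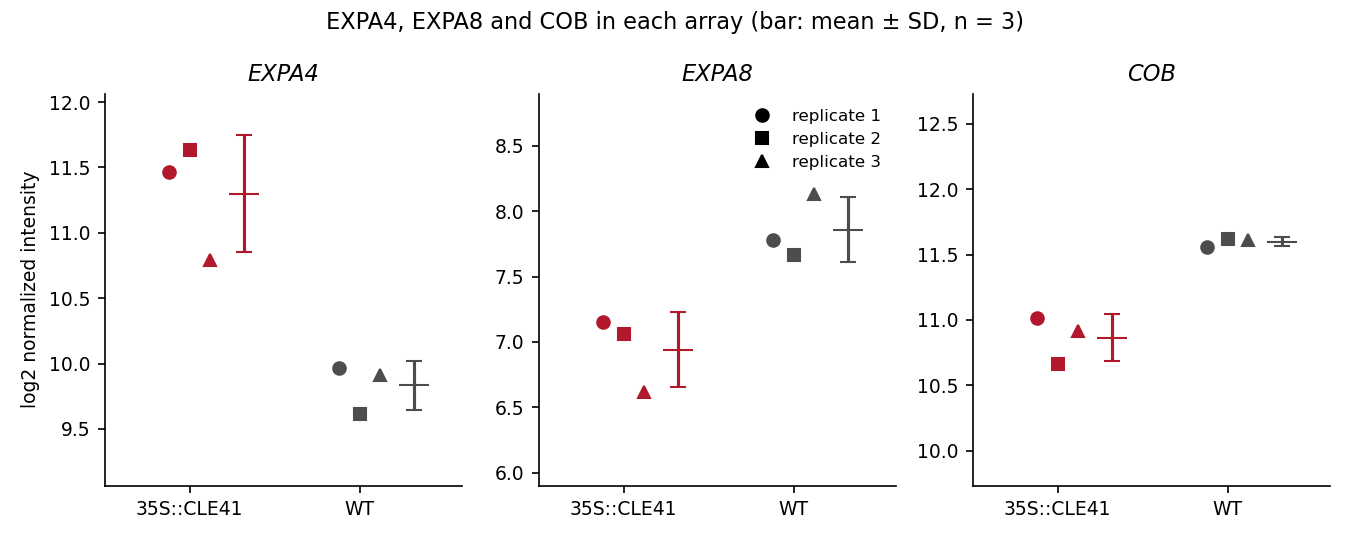
Log2 normalized intensity (vertical axis, the same span in each panel) of *EXPA4*, *EXPA8* and *COB* on each array of 35S::CLE41 and WT; marker shapes give the replicate, and bars the mean ± SD (n = 3). *EXPA4* lies higher on all 3 35S::CLE41 arrays than on any WT array, while *EXPA8* and *COB* lie lower.

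**Figure D2:**
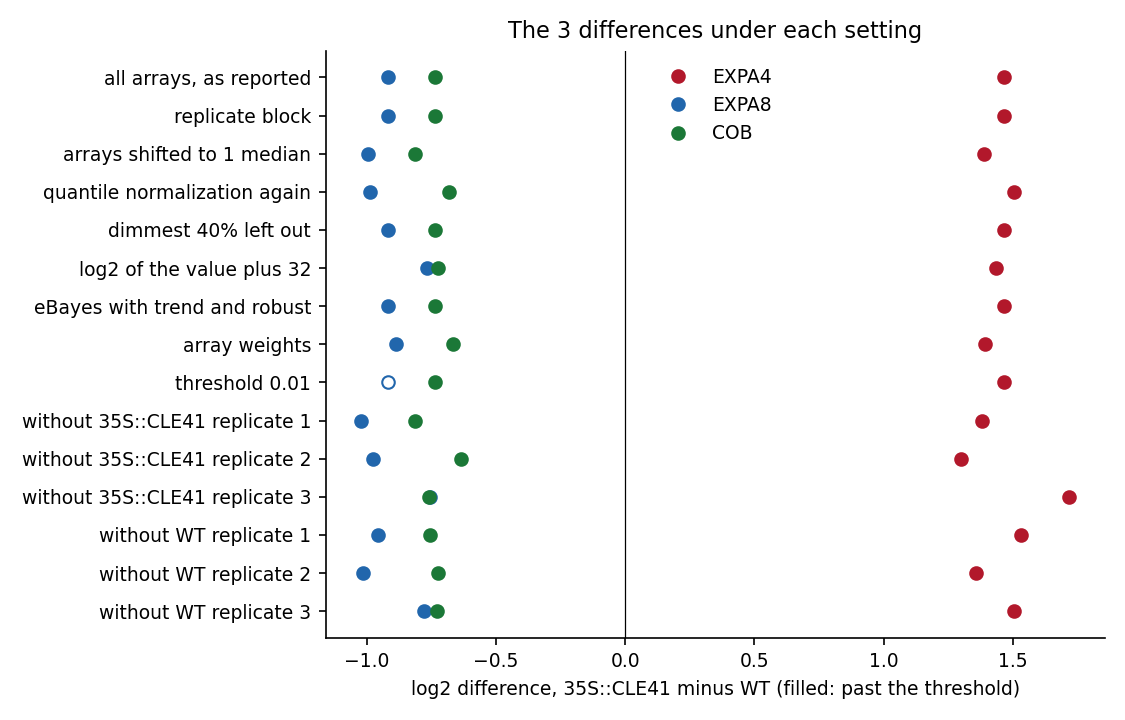
Log2 difference, 35S::CLE41 minus WT (horizontal axis), of *EXPA4*, *EXPA8* and *COB* under each setting (rows), with filled points past the threshold of that setting. *EXPA4* stays between 1.30 and 1.72; *EXPA8* runs from -1.02 to -0.75 and *COB* from -0.81 to -0.63, the points of the falling genes nearly coinciding without 35S::CLE41 replicate 3.

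An array-wide scaling cancels in the ratio of 2 probe sets on the same array, so the balance between the members was also read as within-array log2 ratios. The level of such a ratio has no meaning of its own, since probe sets differ in brightness, but its difference between genotypes does not depend on scaling by a factor. Exact permutation tests over the arrays cannot go below p = 0.1 with 3 against 3, and p-values were adjusted over 3 ratios. Since *EXPA4* rose and *EXPA8* and *COB* fell, each without overlap, both ratios with *EXPA4* on top had to separate the genotypes. Their exact permutation p was thus fixed in advance at 0.1, and these ratios restate the differences of the single genes.

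The log2 ratio of *EXPA4* over *EXPA8*, the alpha-expansins that moved in opposite directions, was 4.32, 4.57 and 4.18 in 35S::CLE41 and 2.19, 1.95 and 1.78 in WT. The genotypes were far apart relative to the spread within each, with means of 4.36 ± 0.20 in 35S::CLE41 and 1.97 ± 0.21 in WT (SD, n = 3 each). The ratio was 5.22-fold higher in 35S::CLE41, a log2 difference of 2.38 (exact permutation p = 0.1, adjusted p = 0.15, two-sided), with 3 of 3 arrays higher.

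The log2 ratio of *EXPA4* over *COB* was 0.45, 0.97 and -0.12 in 35S::CLE41 and -1.59, -2.01 and -1.70 in WT. Again the arrays did not overlap, and the spread was wider in 35S::CLE41, where the means were 0.43 ± 0.55 against -1.77 ± 0.21 in WT (SD, n = 3 each). The ratio was 4.60-fold higher in 35S::CLE41, a log2 difference of 2.20 (exact permutation p = 0.1, adjusted p = 0.15, two-sided).

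No difference in size was detected between the falling genes. The log2 ratio of *EXPA8* over *COB* was -3.87, -3.60 and -4.30 in 35S::CLE41 and -3.78, -3.96 and -3.48 in WT, and the genotypes overlapped. The log2 difference was -0.18, within the SD of either genotype (0.35 in 35S::CLE41 and 0.24 in WT), with an exact permutation p of 0.5 (adjusted p = 0.5, two-sided). Without single arrays it ran from -0.34 to 0.0048.

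**Figure D3:**
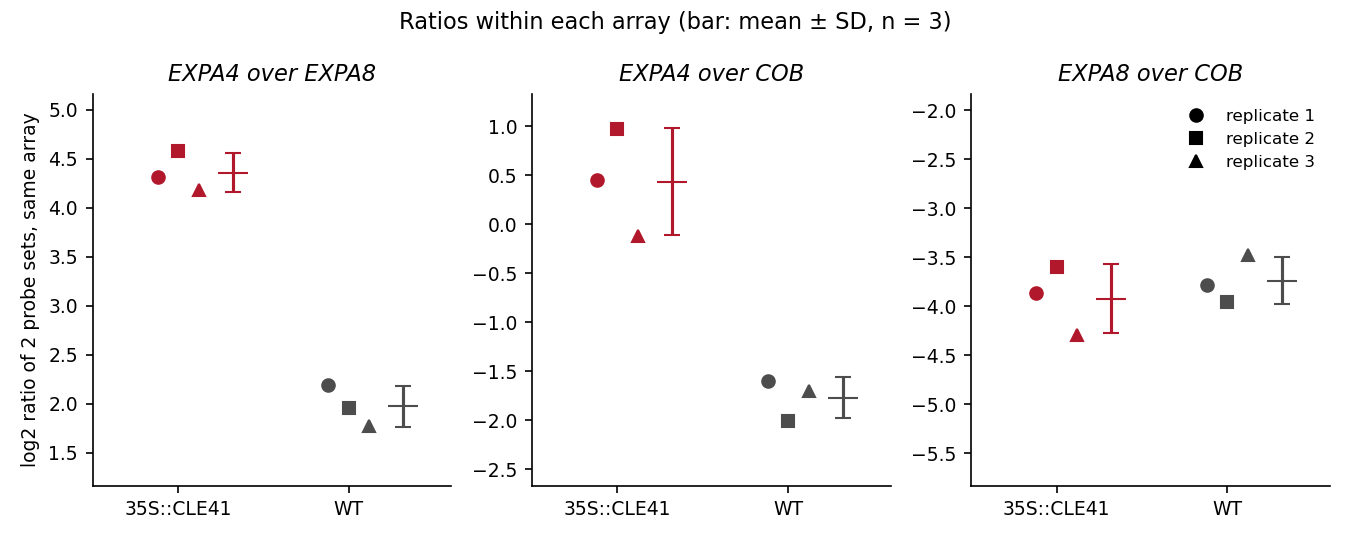
Within-array log2 ratios of *EXPA4* over *EXPA8*, *EXPA4* over *COB* and *EXPA8* over *COB* (vertical axis, the same span in each panel) on each array of 35S::CLE41 and WT, with mean ± SD (n = 3) beside the points. Both ratios with *EXPA4* on top are higher on every 35S::CLE41 array, by 2.38 and 2.20, and the ratio of *EXPA8* over *COB* overlaps.

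The other expansins gave the setting for *EXPA4* and *EXPA8*. Of 35 listed family genes 18 were measured, and another 4 share probe sets with a second family member and were not analysed here. *EXPA4* was the 1 gene called higher, and *EXLA2*, *EXPA8* and *EXPB1* were called lower, while 14 did not pass the threshold. Over all probe sets 7.93% were called higher and 6.86% lower. The median log2 difference of the 18 was 0.033, against -0.0030 over all 13355 measured genes. Of the 10 measured alpha-expansins, *EXPA4* and *EXPA8* were the 2 that passed.

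*EXLA2* (AT4G38400), an expansin-like gene, fell further than *EXPA8*. Its log2 intensities were 8.13, 7.79 and 8.45 in 35S::CLE41, against 9.51, 9.68 and 9.67 in WT. The genotypes lay apart with no overlap, and the log2 difference was -1.49 (SE 0.17, limma adjusted p = 0.00179), or 2.81-fold lower. Without WT replicate 2 it was still called, as it was in each fit without a single array (limma adjusted p up to 0.00949).

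*EXPB1* (AT2G20750), a beta-expansin gene, had log2 intensities of 6.23, 6.35 and 6.14 in 35S::CLE41, against 6.83, 7.49 and 6.96 in WT. WT replicate 2 was its highest array, and the genotypes did not overlap. *EXPB1* fell by 0.85 on the log2 scale (SE 0.17, limma adjusted p = 0.0167), and by 0.65 without WT replicate 2. Without 35S::CLE41 replicate 1 the difference was -0.85 and without 35S::CLE41 replicate 3 it was -0.80, close to the full value, but neither was called (limma adjusted p = 0.0557 and 0.062).

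Another 2 family genes lay close to the threshold. *EXPA20* (AT4G38210), an alpha-expansin gene, had log2 intensities of 6.73, 6.89 and 6.68 in 35S::CLE41, against 6.04, 6.47 and 6.36 in WT. It differed by 0.48 (SE 0.13, limma adjusted p = 0.0504). It passed without WT replicate 2 (0.57, limma adjusted p = 0.0298), with array weights (0.56, limma adjusted p = 0.0175) and in the fit without the 40% dimmest probe sets (limma adjusted p = 0.044). In the other 11 of 14 alternatives *EXPA20* did not pass, with a limma adjusted p of up to 0.15. *EXLA1* (AT3G45970), an expansin-like gene, had 9.47, 8.10 and 9.60 in 35S::CLE41, against 10.33, 10.05 and 10.50 in WT. Its difference of -1.24 (SE 0.36, limma adjusted p = 0.0594) did not pass, with 35S::CLE41 replicate 2 as the low array. Without that array the difference was -0.76 and passed (limma adjusted p = 0.0391). With all arrays kept, *EXLA1* passed with the replicate number as a block (limma adjusted p = 0.0259), with arrays shifted to 1 median (0.0457), without the 40% dimmest probe sets (0.0325) and with array weights (0.0442). In the other 9 of 14 alternatives *EXLA1* did not pass, with a limma adjusted p of up to 0.141.

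The remaining expansins lay further from the threshold in adjusted p, and some of them were dim. *EXLA3*, *EXPA15* and *EXPB3* differed by 0.58 (SE 0.23), 0.55 (SE 0.28) and 0.41 (SE 0.15), with limma adjusted p-values of 0.14, 0.235 and 0.105. Their 35S::CLE41 arrays all lay above their WT arrays, but WT replicate 2 was the low array in each. For *EXPA15* it stood at 8.29, against 9.32 and 9.39 on the other WT arrays, and without it the difference was 0.19; for *EXLA3* the difference without it was 0.31. *EXPB3* passed without 35S::CLE41 replicate 3, where its difference was 0.55 (limma adjusted p = 0.0432). *EXPA9* and *EXLB1* differed by 0.28 and 0.09, with overlapping arrays, and *EXPA9* differed by 0.094 without WT replicate 2. The last 7 genes, *EXPA7*, *EXPA16*, *EXPA18*, *EXPA21*, *EXPA24*, *EXPB2* and *EXPB5*, averaged under 5.67 in both genotypes, the boundary of the dimmest 40% of probe sets, and differed by -0.18 to 0.08. *EXPA7* and *EXPA18*, known for expression in root hairs, are among these.

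Across the 18, no array overlapped between genotypes for 5 genes higher and 4 lower in 35S::CLE41. Over all probe sets, 18.7% were higher and 15.8% lower without overlap. WT replicate 2 was the lowest WT array for 9 of the 18 and the highest for 5, and the count of called expansins without it was 5 in place of 4.

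**Figure D4:**
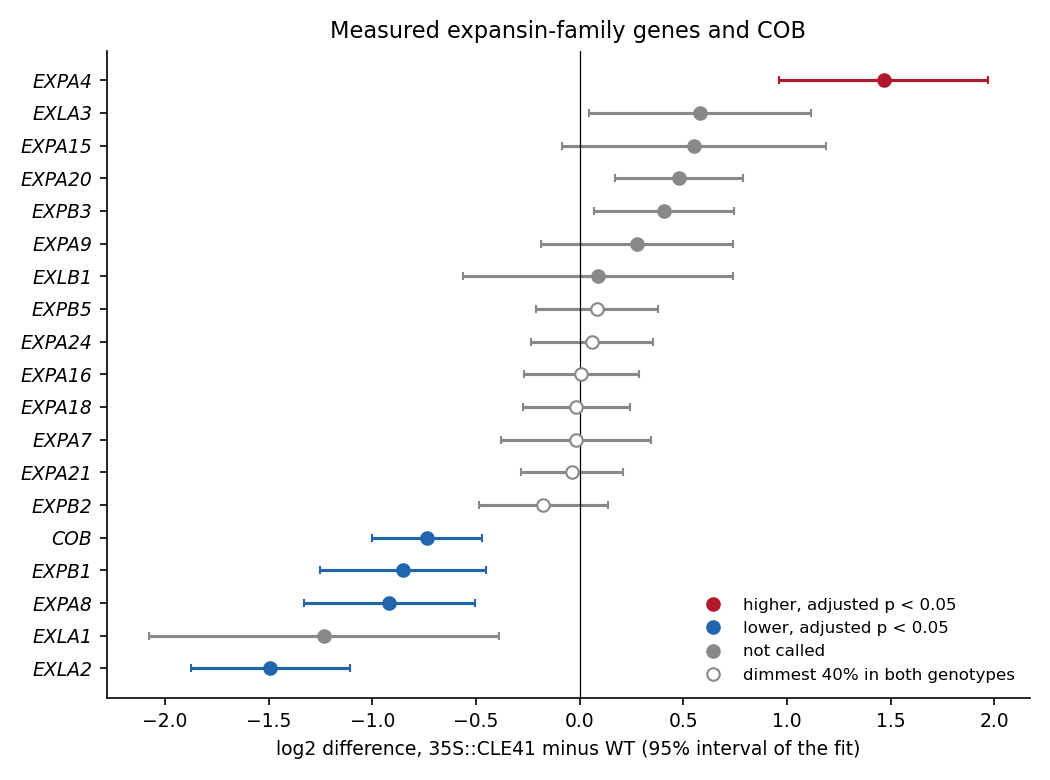
Log2 difference, 35S::CLE41 minus WT (horizontal axis, with the 95% interval of the limma fit), of the 18 measured expansin-family genes and *COB*, ordered by size. *EXPA4* stands at the top with 1.47, *EXLA2* at the bottom with -1.49; open points are genes averaging under the boundary of the dimmest 40% of probe sets in both genotypes.

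*COB* was the 1 measured gene of the 11 listed for its own family, so its fall cannot be set beside that of other COBRA-like genes. The lists of cellulose synthesis, wall sensing and cortical microtubule genes give its closest setting, since cortical microtubules guide the cellulose synthase complexes whose product COB helps to orient. Of 22 listed cellulose synthesis genes 4 were measured, each known here by locus only. No cellulose synthase gene had a probe set that the probe table ties to it alone. AT5G42860 had log2 intensities of 8.19, 8.04 and 8.25 in 35S::CLE41, against 9.26, 9.26 and 9.29 in WT. Its WT arrays lay close together, and it fell by 1.11 on the log2 scale (SE 0.097, limma adjusted p = 0.000765).

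AT1G45688 fell by 0.41 (SE 0.10, limma adjusted p = 0.031). Its call was lost without any single array other than WT replicate 2 (limma adjusted p up to 0.101), while the difference stayed between -0.45 and -0.36. The call was also lost with the replicate number as a block (limma adjusted p = 0.0732). AT2G41770 differed by -0.37 (SE 0.11, limma adjusted p = 0.066) and passed with arrays shifted to 1 median (-0.45, limma adjusted p = 0.0373). AT3G57420 differed by 0.15 (SE 0.17, limma adjusted p = 0.65), and by -0.024 without WT replicate 2.

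Of 7 listed wall sensing genes 2 were measured. *THE1* (AT5G54380) encodes the receptor kinase THESEUS1, which restrains growth when cellulose synthesis is impaired. Its log2 intensities were 8.43, 8.49 and 8.62 in 35S::CLE41, against 9.60, 9.85 and 9.46 in WT. The genotypes were well apart, and *THE1* fell by 1.12 (SE 0.12, limma adjusted p = 0.0018), or 2.18-fold. *FER* (AT3G51550), which encodes the related kinase FERONIA, differed by 0.08 (SE 0.11, 95% interval -0.17 to 0.33, limma adjusted p = 0.713), and by 0.024 without WT replicate 2.

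Of 24 listed microtubule genes 8 were measured, 2 of which were called lower and none higher, where 6.86% of all probe sets were called lower. The beta-tubulin gene *TUB1* averaged a log2 intensity of 8.06 ± 0.20 in 35S::CLE41 and 10.92 ± 0.28 in WT, and *TUB5* averaged 9.69 ± 0.10 in 35S::CLE41 and 10.84 ± 0.12 in WT (SD, n = 3 each). The other 6 did not pass the threshold. The list's median log2 difference was -0.24, against -0.0030 over all measured genes. No gene of the acid growth list, which holds plasma membrane proton pumps and SAUR genes, had a probe set that the probe table ties to it alone. Such absences concern the naming of probe sets, and do not show that the array lacks these genes.

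Markers of other stem tissues were thinly covered, and some moved with the genotypes. Of 8 epidermis and cuticle genes 1 was measured: *WSD1*, the wax ester synthase gene, had intensities of 52.0 to 71.2 in 35S::CLE41 and 389 to 759 in WT on the linear scale, and was called lower. Of 5 genes of photosynthetic tissue 3 were measured, and their summed intensity was 13193 to 15356 in 35S::CLE41 and 16716 to 19336 in WT. *SBPASE*, a Calvin cycle gene among them, fell by 0.66 (SE 0.11, limma adjusted p = 0.009), while *PRK* and *RCA* were not called; *PRK* passed with array weights (-0.39, limma adjusted p = 0.0473). The single measured genes for xylem and fibre (*GUT2*, of xylan synthesis; 1 of 11 listed) and phloem (*OPS*; 1 of 5) overlapped between the genotypes, at 1075 to 1715 and 50.5 to 68.6 in 35S::CLE41, and 643 to 1445 and 31.7 to 70.1 in WT. WT replicate 2 was the highest WT array for *OPS* and the lowest for *GUT2*. Without it the log2 difference of *OPS* was 0.71 in place of 0.41 and was called (limma adjusted p = 0.0422), and that of *GUT2* was 0.13 in place of 0.45 (limma adjusted p = 0.782). The measured root hair genes, 2 of 3, summed to 49.8 to 58.3 in 35S::CLE41 and 46.6 to 62.1 in WT. None of 6 flower and pollen genes was measured. Whether these marker differences reflect tissue makeup was not tested, nor was any part of tissue makeup in the results for *EXPA4*, *EXPA8* and *COB*.

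Genes whose pattern over the 6 arrays was most like that of each member were found by the root mean square (RMS) difference between log2 profiles, each centred on its own mean. The candidates were 1534 genes with a symbol; genes known only by locus were counted but not named. A small RMS difference reflects the size of the genotype difference as much as the arrangement of arrays within a genotype, and is given as a description.

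Closest to *EXPA4* was *IAA29*, an auxin response repressor gene, at an RMS difference of 0.23, with 19 locus-only genes closer. *TBL36*, of the TRICHOME BIREFRINGENCE-LIKE family, followed at 0.23, *AGO7*, an ARGONAUTE gene of small RNA pathways, at 0.26, the gibberellin receptor gene *GID1B* at 0.26 and the beta-glucosidase gene *BGLU33* at 0.28. Their log2 differences between genotypes ran from 1.05 for *GID1B* to 1.66 for *IAA29*. The sizes of both are uncertain, since their WT means, 4.74 for *GID1B* and 5.03 for *IAA29*, lay under 5.67, the boundary of the dimmest 40%. Like *EXPA4*, each was lowest in WT replicate 2.

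Closest to *EXPA8* were *TET7*, a tetraspanin gene, at 0.17, the chaperonin gene *Cpn60beta4* at 0.18, *JKD* (JACKDAW), a zinc finger transcription factor gene, at 0.19, the carboxypeptidase-like gene *SCPL34* at 0.19 and *CSLC5*, of the cellulose synthase-like C family that makes xyloglucan's glucan backbone, at 0.19. There were 12 locus-only genes closer than *TET7*. The log2 differences of these genes ran from -1.10 for *JKD* to -0.62 for *SCPL34*, and the mean of *JKD* in 35S::CLE41, 5.44, lay under the same boundary. *COB* was the 30th of the 1534 in closeness to *EXPA8*, at 0.26, with 87 locus-only genes also closer.

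The RMS differences of the genes closest to *COB* were smaller, and *COB* also had the smallest genotype difference of the 3 members. Their correlations with *COB* (Pearson r over the 6 arrays) ran from 0.973 to 0.995. Those of the genes closest to *EXPA4* ran from 0.955 to 0.983, and those closest to *EXPA8* from 0.927 to 0.968. *GAUT15*, of the galacturonosyltransferase family, lay at an RMS difference of 0.040, *TAPX*, the thylakoid ascorbate peroxidase gene, at 0.042, the glutathione transferase gene *GSTU18* at 0.059, *2A6* at 0.072 and *LHCB4.3*, a light-harvesting gene, at 0.098. No locus-only gene was closer than *GAUT15*. All 5 were lower in 35S::CLE41, by log2 differences from -0.82 for *LHCB4.3* to -0.67 for *GSTU18*. *EXPA8* was the 168th of the 1534 in closeness to *COB*, with 776 locus-only genes also closer.

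**Figure D5:**
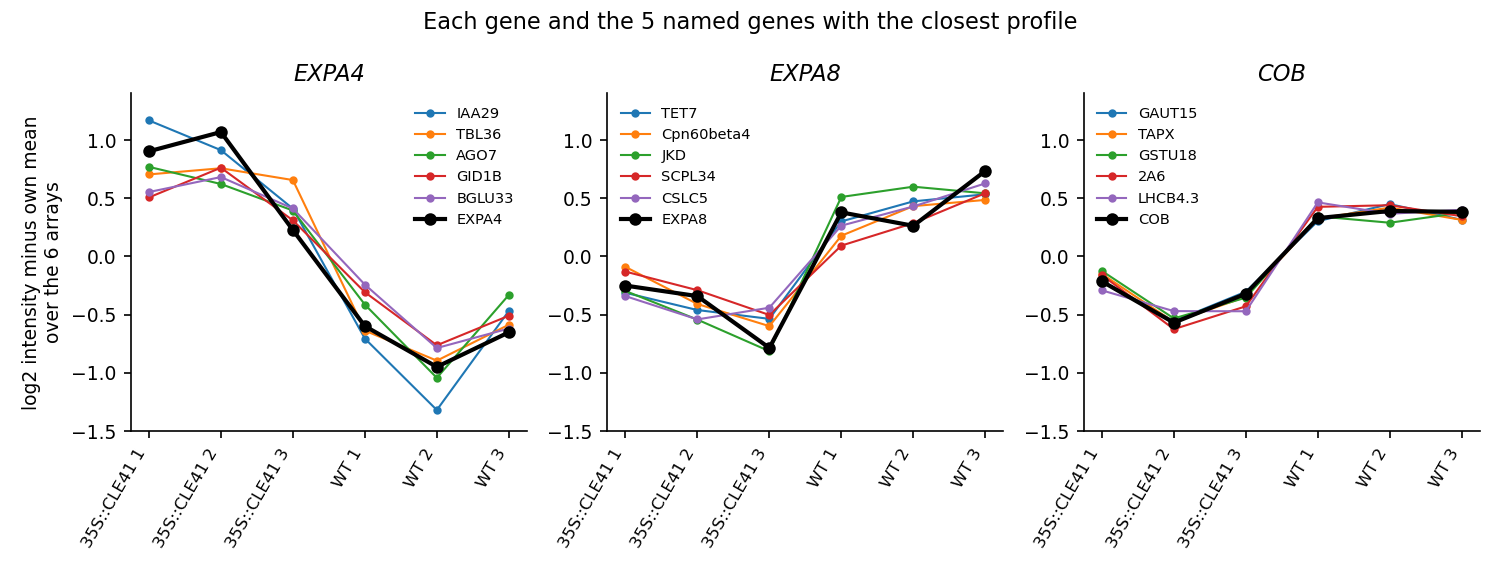
Log2 intensity centred on each gene's mean over the 6 arrays (vertical axis) for *EXPA4*, *EXPA8* and *COB* (black) and the 5 genes with a symbol whose profile was closest to each (colours), with the 35S::CLE41 arrays on the left and the WT arrays on the right; lines only join the points of 1 gene. The profiles around *COB* run almost on top of one another (RMS differences 0.040 to 0.098), and those around *EXPA4* are looser (0.23 to 0.28).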

How the data were processed

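Total RNA was isolated with Trizol and given a biotin label in a 2-cycle reaction, per the labels' protocols. The authors deposited normalized intensity on a linear scale, 1 value per probe set and array. Array medians ran from 91.9 (WT replicate 3) to 101 (35S::CLE41 replicate 2). RMA and limma are named without versions, per the submitters' processing notes; RMA usually ends on the log2 scale, and a back-transformation and the genome build are not given in the sources used here.

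From these, log2 of each value was taken. Probe sets were named from the platform's probe table, updated through RefSeq's TAIR10.1 gene table: 13513 map to 1 gene, 503 to several, and 8730 are not listed and are unnamed here. All 22746 were fitted with genotype as the single factor, by lmFit and eBayes of limma 3.58.1 (two-sided, in R 4.3.3), and given Benjamini-Hochberg adjustment over all of them. No background or detection call was used, and the number of arrays limits the precision. The procedure was tested on simulated data. Where a gene had several probe sets, that with the highest mean stood for it.

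The members and gene lists were chosen with earlier results of these data known. Of 146 listed genes 39 were measured. Named were the members, every measured expansin, COBRA, cellulose synthesis and wall sensing gene, up to 4 called genes (or the 2 with the smallest p) of each other list, and the 5 closest genes by profile. Genome neighbours of the members, *RCA* and the counts of WT replicate 2 were added after values were seen. The alternatives tried were a threshold of 0.01, a pseudocount of 32, array weights, a trended and robust eBayes, a second quantile normalization, a common median for all arrays, a fit without the dimmest 40%, a block for the replicate number, and each array left out. Figures were drawn with matplotlib 3.10.9.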

Additional observations from a re-analysis of the deposited data

How the results depend on the processing

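*EXPA4*, *EXPA8* and *COB* kept their direction and their call under each of 14 alternatives, except that *EXPA8* (-0.92) missed a threshold of 0.01 (limma adjusted p = 0.0143). Without single arrays *EXPA4* ran from 1.30 to 1.72, *EXPA8* from -1.02 to -0.75 and *COB* from -0.81 to -0.63. The ratio of *EXPA8* over *COB* ran from -0.34 to 0.0048 and turned direction without 35S::CLE41 replicate 3; *EXPA4* over *EXPA8* ran from 2.28 to 2.49 and *EXPA4* over *COB* from 1.93 to 2.48. Probe sets called fell to 1125 at a threshold of 0.01 (503 higher and 622 lower), and without single arrays ran from 1699 to 2872 (770 to 1490 higher and 917 to 1382 lower). The count was 1906, 1699 and 1930 without 35S::CLE41 replicates 1, 2 and 3. At the 0.01 threshold 2 expansins were called in place of 4.

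Among 29 other named genes 399 alternative values were computed: 357 gave the same direction and call, 20 changed sign, 12 newly passed the threshold and 10 no longer passed. The values newly passed were *EXLA1* in 5 settings, *EXPA20* in 3, and *EXPB3*, AT2G41770, *OPS* and *PRK* in 1 each. The reversals concerned genes near 0: with arrays shifted to 1 median *EXPA24* (-0.020), *EXPA16* (-0.071) and *FER* (-0.00044), with quantile normalization *EXPA16* (-0.0024), and with array weights *EXPA16* (-0.085), *EXPA18* (0.0062) and *EXPA7* (0.049). Without single arrays *EXPB5* ran from -0.047 to 0.15, *EXPA24* from -0.055 to 0.17, *EXPA21* from -0.11 to 0.038, *EXLB1* from -0.22 to 0.28, *EXPA18* from -0.081 to 0.043, *EXPA7* from -0.17 to 0.12, *EXPA16* from -0.098 to 0.094 and AT3G57420 from -0.024 to 0.28. The causes were not tested.

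Samples that share a replicate number showed little correlation in how they deviate from their genotype's mean (-0.010, 0.080 and -0.092), so the numbers do not show pairs. With the replicate block *EXPA4* (1.47), *EXPA8* (-0.92) and *COB* (-0.74) had limma adjusted p-values of 0.0143, 0.0391 and 0.0198.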

Other observations

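The genes next to each member in RefSeq's TAIR10.1 gene order were read as a further description, chosen by position after the data were seen. Of the 2 protein-coding genes on either side of *EXPA4*, 3 were measured: AT2G39710 was higher in 35S::CLE41 by 0.75 on the log2 scale (SE 0.20, limma adjusted p = 0.0399), while AT2G39690 differed by -0.27 (SE 0.10, limma adjusted p = 0.125) and AT2G39670 by -0.58 (SE 0.18, limma adjusted p = 0.0716). Around *EXPA8* 3 of 4 were measured and none was called: AT2G40600 differed by 0.27 (SE 0.14), AT2G40620 by -0.27 (SE 0.18) and AT2G40630 by -0.05 (SE 0.15). Around *COB* 2 were measured and neither was called, AT5G60930 at -0.08 (SE 0.20) and AT5G60940 at 0.07 (SE 0.12). AT2G39710 was thus the only neighbour called, where 14.8% of all probe sets were called.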
